A study of Mus musculus with 24 samples.

Results

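The genes described here encode 42 synaptic adhesion molecules, taken by name from the deposited count table. They are 2 neurexins, 2 neuroligins, 4 Lrrtm proteins, 5 Slitrk proteins, 3 latrophilins, 3 Cntnap proteins, 4 Cadm proteins, 3 cerebellins, 3 LAR receptor phosphatases, 3 Flrt proteins, 3 netrin-G ligands, Il1rapl1, 4 teneurins and 2 netrin-Gs. All 42 were found among the 55401 gene IDs of the table, and all 42 were among the 23738 genes with enough counts to be tested. RNA came from bilateral punches of the nucleus accumbens, a ventral striatal region made up largely of GABAergic projection neurons, in mice of the strains C57BL/6J or DBA/2J, 8 to 9 weeks old. Which strain gave which library was not known here. Surgery was a tibial spared nerve injury, or SNI, on the left side of the body at the sciatic nerve, used as a model of neuropathic pain, or a sham operation that left the nerve untouched. All of them had received an AAV8 vector with the hSyn promoter, which drives expression in neurons, in both accumbens: AAV8-hSyn-Egfp, or AAV8-hSyn-Mef2c-Egfp, which adds the transcription factor Mef2c. The 24 libraries form 4 groups of 6, which are Sham Gfp and SNI Gfp for the control vector and Sham Mef2c and SNI Mef2c for the Mef2c vector. The labels do not say that the 6 libraries of a group came from separate mice, so p-values measure the spread between libraries.

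Synaptic adhesion molecules hold the presynaptic and postsynaptic membranes together and help to set which kind of synapse forms. Neurexins, LAR receptor phosphatases and netrin-Gs act mainly from the presynaptic side, and neuroligins, Lrrtm, Slitrk and Il1rapl1 proteins and the netrin-G ligands receive them on the postsynaptic side, while secreted cerebellins bridge neurexins to glutamate delta receptors. Latrophilins bind teneurins and Flrt proteins across the cleft. In the striatum such molecules help to organize the cortical and thalamic inputs onto projection neurons.

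The count of a gene covered its whole span, introns included, without regard to strand, and total counts per library lay between 25477019 and 36570108. Levels are given as CPM, counts scaled to a common library size with TMM factors. Fold changes are on the log2 scale with a standard error (SE), all from edgeR, with p-values adjusted over all 23738 genes and a threshold of 0.05. Mef2c, the gene carried by the vector, had 169 CPM in Sham Gfp (SD 25.9, n = 6, range 139 to 212), 243 CPM in Sham Mef2c (SD 128, n = 6, range 123 to 469), 168 CPM in SNI Gfp (SD 39.2, n = 6, range 133 to 221) and 611 CPM in SNI Mef2c (SD 146, n = 6, range 474 to 832). It separated the vectors in SNI mice, but the libraries labelled Sham Mef2c overlapped Sham Gfp, so the sham comparison below rests on their labels. Striatal markers were present in every library, with Drd1 at 61.8 to 296 CPM and Ppp1r1b at 286 to 727 CPM. The cortical marker Slc17a7 ranged from 1.60 to 1175 CPM. The mean log2 CPM of interferon response genes was 5.04 in Sham Gfp against 1.41 in Sham Mef2c, 2.78 in SNI Gfp and 1.42 in SNI Mef2c, and microglial markers had 6.00 against 4.79, 5.21 and 4.82. The part of the interferon and microglial markers in the results below was not tested. In whole tissue, fewer cells of a type and less RNA per cell cannot be told apart.

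Per exon length, the most abundant members in Sham Gfp were Cadm4 at 81.0 CPM per kb of exon (SD 12.3, n = 6), Lrrc4b at 68.9 (SD 4.14, n = 6), Cntnap1 at 45.4 (SD 7.09, n = 6), Adgrl1 at 43.5 (SD 3.36, n = 6) and Cadm3 at 42.4 (SD 2.63, n = 6). Cadm proteins are immunoglobulin adhesion molecules of both sides of the synapse, and Cntnap1 belongs to the paranodal junction of myelinated axons. The levels of Cntnap1, Adgrl1 and Cadm3 did not differ beyond their spread. Cbln1 was the lowest, at 0.692 CPM per kb of exon (SD 0.284, n = 6), with a range of 0.989 to 4.77 CPM over the 24 libraries. Intronic reads enter the count, so this order favours genes with much intron. Exons made up 0.352% of the span of Lrrc4c and 100% of the spans of Slitrk1 and Lrrtm2. Per kb of span the order began with Cntnap1 at 13.2 CPM per kb, and Il1rapl1 came last at 0.0272.

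**Figure D1:**
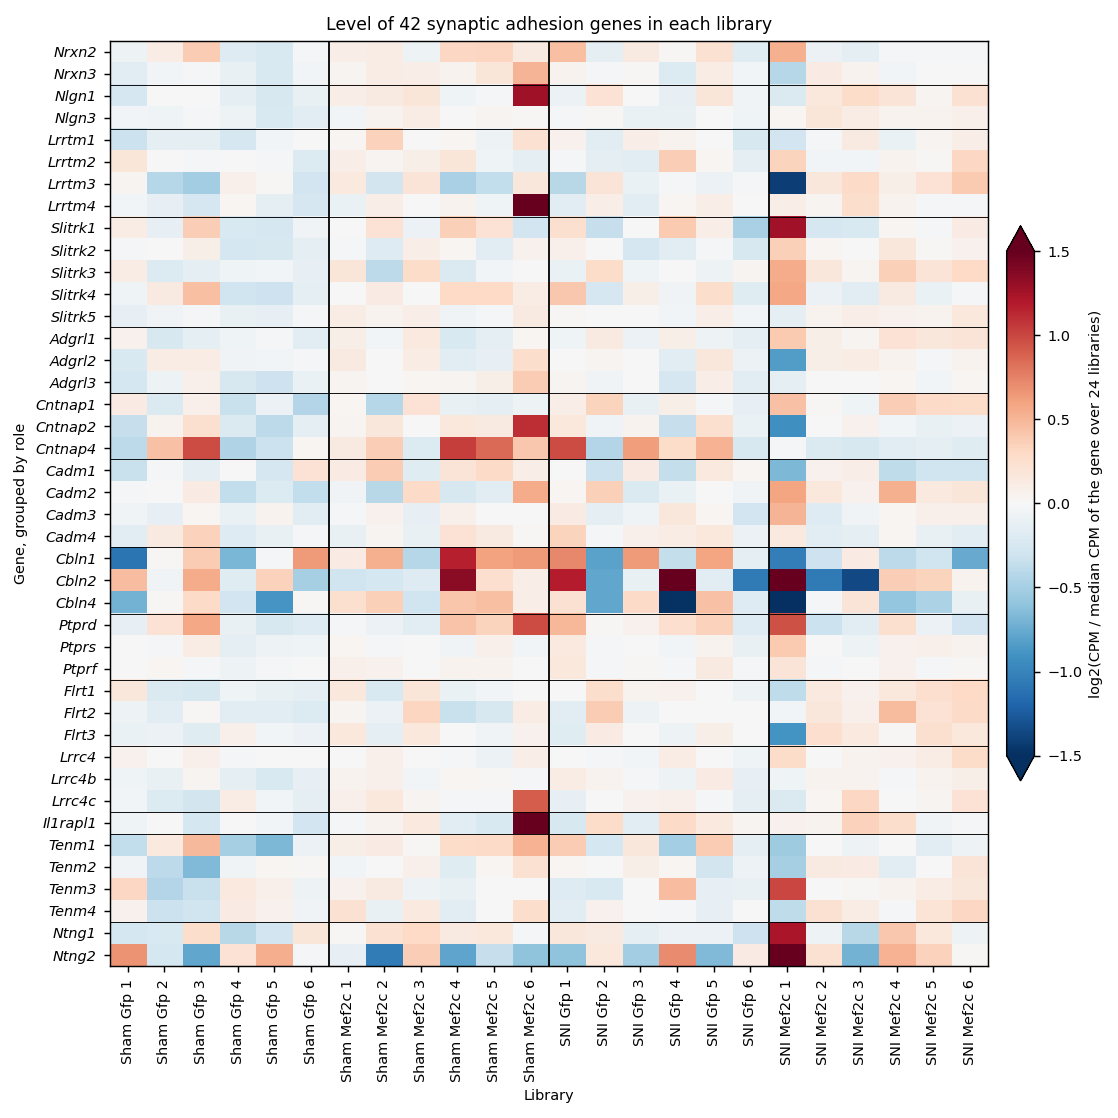
Level of each of the 42 genes (rows, grouped by role, separated by thin lines) in each of the 24 libraries (columns, 6 per group), as log2 of its CPM over the gene's median CPM in the 24 libraries, with the colour limited to 1.5 in either direction. Sham Mef2c library 6 is high in Il1rapl1 (284 CPM), Lrrtm4 (283 CPM), Nlgn1 (298 CPM) and Cntnap2 (515 CPM), and SNI Mef2c library 1 is the highest of all libraries in 15 genes and the lowest in 10. Among coding genes by span class, SNI Mef2c library 1 is the highest in 13.3% to 23.6%.

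The vector carries a transcription factor, so the sequences before annotated starts, some of them inside a gene span, were searched for its motif. RefSeq (GRCm38.p6) gave windows of 250 bases before a start for 31 of the 42 members, 41 windows in all. The MEF2 motif, searched on both strands, was in 0 of the 41, and in 959 of 32851 windows of all genes (2.92%). The palindrome TGACGTCA, the cAMP response element of activity-regulated promoters, was in 2 of the 41, those of Slitrk2 and Tenm3, and in 508 of 32851 (1.55%). Absence of these letters from a window says nothing about the factor elsewhere in the gene. Shown are Nrxn3, which rose in the sham comparison, Il1rapl1 and Lrrtm4, which had the widest spread between libraries, and 30 bases around the palindrome, in capitals, of the 2 genes that held it. Of the 41 windows, 17 overlapped annotated exons. Nrxn3 had 3 windows inside its span and clear of annotated exons, and the first of them along the chromosome is shown, chr12:88794254-88794503 on the plus strand. The span of Nrxn3 begins at 88722876, and whether this window acts as a promoter was not tested. Il1rapl1 is read on the minus strand from chrX:88115949-88116198, and Lrrtm4 on the plus strand from chr6:80018627-80018876, and both windows lie before the annotated gene. The sites of Slitrk2, chrX:66652951-66652980 on the plus strand, and Tenm3, chr8:48674735-48674764 on the minus strand, lie inside the gene spans and overlap annotated exons.
Nrxn3: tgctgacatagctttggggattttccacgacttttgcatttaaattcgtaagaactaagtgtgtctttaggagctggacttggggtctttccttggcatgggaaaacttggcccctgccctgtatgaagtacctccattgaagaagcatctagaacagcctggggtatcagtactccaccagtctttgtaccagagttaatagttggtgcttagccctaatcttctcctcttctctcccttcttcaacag
Il1rapl1: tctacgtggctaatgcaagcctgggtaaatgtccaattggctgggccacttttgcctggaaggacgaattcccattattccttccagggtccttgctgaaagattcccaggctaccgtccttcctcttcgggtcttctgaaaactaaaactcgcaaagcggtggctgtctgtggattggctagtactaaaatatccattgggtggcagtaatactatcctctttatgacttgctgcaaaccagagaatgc
Lrrtm4: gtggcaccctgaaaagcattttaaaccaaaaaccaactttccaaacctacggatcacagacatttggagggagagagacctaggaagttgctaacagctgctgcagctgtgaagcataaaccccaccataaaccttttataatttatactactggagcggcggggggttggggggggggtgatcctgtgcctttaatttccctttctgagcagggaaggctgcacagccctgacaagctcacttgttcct
Slitrk2: cctctcctccgTGACGTCAcccctagtcct
Tenm3: gatgctttcgcTGACGTCAtgccaaccttt

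The first comparison asked what the Mef2c vector did in sham mice. Of the 42 members, 4 rose in Sham Mef2c against Sham Gfp and 0 fell, while 9.41% of all genes tested passed, 1.48% higher and 7.93% lower (351 and 1882 genes). The number of higher genes was 1323 without Sham Gfp library 3 and 132 without Sham Gfp library 5. The 4 were Nrxn3, a presynaptic neurexin, Nlgn3, a neuroligin of excitatory and inhibitory synapses, Slitrk5, a postsynaptic partner of LAR receptor phosphatases, and Adgrl3, a latrophilin that binds Flrt3 and teneurins. Their fold changes were small, from 1.09 to 1.21. The log2 fold change was above 0 in 40 of the 42, with a median of 0.13, against 54.9% of all genes and a median of 0.02. An unadjusted p under 0.05 was reached by 11 members, all higher, against 21.2% of all genes. Of the 23738 genes, 2065 were higher and 2960 lower at that p.

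Nrxn3 (chromosome 12, 88722876 to 90334935, plus strand) ranged from 363 to 420 CPM in Sham Gfp, with a median of 402, and from 437 to 605 in Sham Mef2c, with a median of 457. The groups did not overlap, in this member alone of the 42, while 5.97% of all genes did not overlap, 0.758% higher and 5.21% lower. Its value was 0.27 (SE 0.083, adjusted p = 0.0376). In SNI Gfp it lay between 368 and 460 CPM, median 426, and in SNI Mef2c between 315 and 461, median 424, so both SNI groups overlapped both sham groups.

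Nlgn3 (chromosome X, 101299168 to 101325963, plus strand) lay between 81.2 and 93.9 CPM in Sham Gfp, median 91.0, and between 93.1 and 103 in Sham Mef2c, median 97.4. All but 1 of the Sham Mef2c libraries exceeded every Sham Gfp library, and the log2 fold change was 0.13 (SE 0.037, adjusted p = 0.0285). A gene on the same strand, Gm21986, overlaps Nlgn3 and had 52.1% as many counts, so its reads cannot be told apart from those of Nlgn3. The other neuroligin, Nlgn1, which sits mainly at excitatory synapses, had 103 to 123 CPM in Sham Gfp, median 112, and 118 to 298 in Sham Mef2c, median 134, a difference of 0.48 on the log2 scale (SE 0.17, adjusted p = 0.0749) that was 0.20 without Sham Mef2c library 6.

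Adgrl3 (chromosome 5, 81020138 to 81825133, plus strand) had 136 to 177 CPM in Sham Gfp, median 150, and 168 to 219 in Sham Mef2c, median 173. The ranges overlapped, with 2 of the 6 Sham Mef2c libraries above all of Sham Gfp, and the log2 fold change was 0.25 (SE 0.071, adjusted p = 0.0267). Gm16054, on the opposite strand inside Adgrl3, had 16.4% as many counts, so its reads cannot be told apart from those of Adgrl3. Of the other latrophilins, Adgrl1 had a value of 0.08 and Adgrl2 of 0.06, and neither passed.

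Slitrk5 (chromosome 14, 111675097 to 111683141, plus strand) had 64.2 to 68.7 CPM in Sham Gfp, median 66.4, and 67.9 to 77.3 in Sham Mef2c, median 73.9, a difference of 0.13 on the log2 scale (SE 0.042, adjusted p = 0.046). The other 4 Slitrk genes had values between 0.06 and 0.16 and did not pass. Among the remaining members the smallest p belonged to Lrrtm1, a postsynaptic neurexin ligand, at 0.24 (SE 0.081, adjusted p = 0.0647). Its 15.1 kb lie inside Ctnna2, on the opposite strand, which had 8.58 times as many counts, and 10.6% of the counts of Lrrtm1 would come from Ctnna2 if its reads were spread evenly.

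The members of the other roles did not pass in this comparison. Among the presynaptic genes, Nrxn2 had a value of 0.15 (SE 0.12), and the LAR phosphatases Ptprs, at 442 to 635 CPM over all libraries, and Ptprf, at 141 to 170 CPM, had 0.03 and 0.06. Netrin-G1 (Ntng1) and netrin-G2 (Ntng2) went in different directions, at 0.24 (SE 0.19) and -0.49 (SE 0.35). Of the bridging cerebellins, Cbln1 and Cbln2 were the least counted members. The maxima of Cbln1, Cbln2 and Cbln4 were 4.77, 23 and 32.4 CPM. Values of these cerebellins were 0.14 to 0.53, with SE of 0.3 to 0.5.

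Of the postsynaptic genes, Lrrtm2 and Lrrtm3 had 0.04 and 0.09, and the netrin-G1 ligand Lrrc4c 0.32 (SE 0.13, adjusted p = 0.126), which was 0.14 (SE 0.079, adjusted p = 0.324) without Sham Mef2c library 6. The Cadm genes lay between 0.02 for Cadm4 and 0.24 for Cadm1, with Cadm2 at 0.17 and Cadm3 at 0.06. The latrophilin partners were of similar size, with Flrt1, Flrt2 and Flrt3 at 0.09, 0.11 and 0.11 and the teneurins between 0.03 for Tenm3 and 0.34 for Tenm1, with Tenm4 at 0.12. Some of these counts hold reads of a host gene on the opposite strand. If host reads were spread evenly, they would make up 21% of the counts of Flrt1 (in Macrod1), 10.1% of Lrrtm2 (in Ctnna1), 3.75% of Lrrtm3 (in Ctnna3) and 3.33% of Flrt3 (in Macrod2).

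The sham result depended on single libraries. The number of members that passed was 0 when Sham Gfp library 5 was left out. It was 1, Nlgn3, when Sham Gfp libraries 1 or 4 or Sham Mef2c library 6 were left out in turn, and 2 for Sham Gfp libraries 2 and 6 and for Sham Mef2c libraries 2 and 3. Scaling by library size alone left 0 members past the threshold, and adding septal and thalamic markers as a covariate, chosen after the data were seen, also left 0. Sham Mef2c libraries 2 and 5 had less Mef2c, 125 and 123 CPM, than any Sham Gfp library. Leaving out both, also chosen after the data were seen, gave 5 members, which were Slitrk5, Adgrl3, Nlgn1, Lrrtm4 and Il1rapl1, while Nrxn3 at 0.30 (adjusted p = 0.075) and Nlgn3 at 0.13 (adjusted p = 0.113) did not pass.

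**Figure D2:**
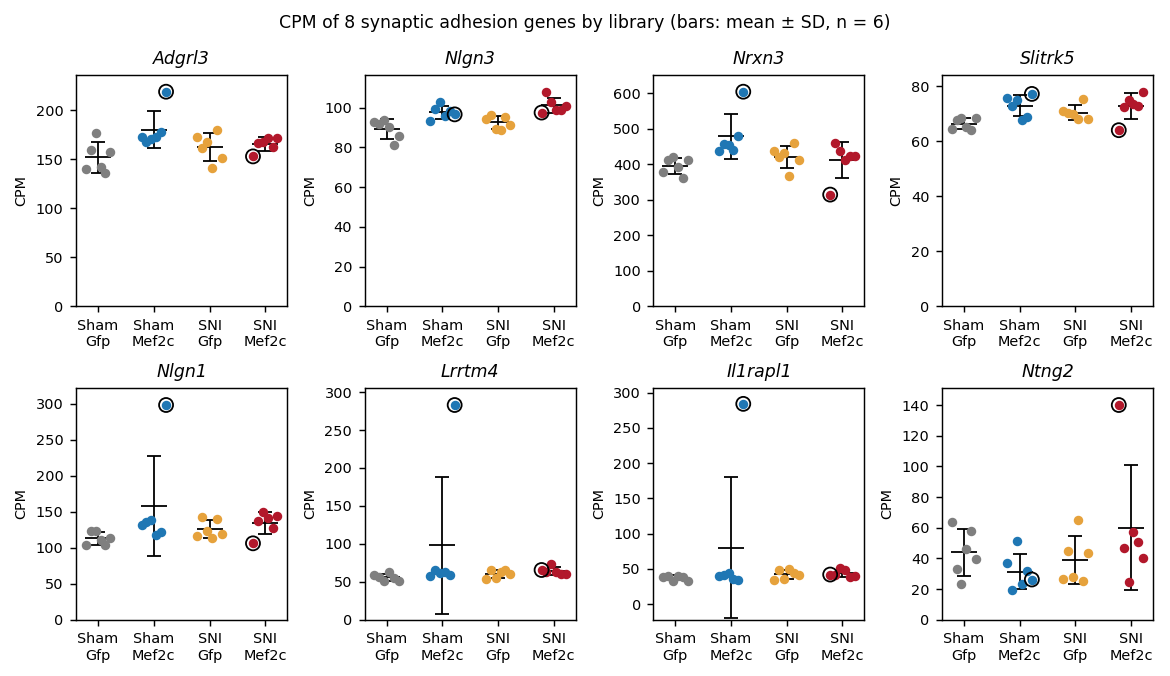
CPM of 8 synaptic adhesion genes (panels) by group, 1 point per library, with bars for the mean and SD of 6 libraries; circles mark Sham Mef2c library 6 and SNI Mef2c library 1. Nrxn3 has no overlap between Sham Gfp and Sham Mef2c. The means of Il1rapl1 and Lrrtm4 in Sham Mef2c are carried by the 1 circled library. That library also raises the mean of Nlgn1, whose other Sham Mef2c libraries have a mean of 129 CPM, against 113 in Sham Gfp.

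The largest fold changes of that comparison, those of Il1rapl1 and Lrrtm4, belonged to long genes and to 1 library. Next in size were Cbln1 at 0.53 and Ntng2 at -0.49, with spans of 4.205 and 58.47 kb. Il1rapl1, a postsynaptic partner of Ptprd linked to X-chromosomal intellectual disability, had 284 CPM in Sham Mef2c library 6, while the other 5 libraries of the group lay between 34.4 and 44.4 and Sham Gfp between 32.9 and 40.5. Library 6 was thus 7.23 times the mean of the other 5, and the gene ranked at place 5 among 14649 coding genes for this ratio. Its log2 fold change was 1.09 with all libraries, which did not pass (adjusted p = 0.0922), and 0.07 (SE 0.098, adjusted p = 0.735) without library 6. Lrrtm4, which binds glypicans as well as neurexins, had 283 CPM there and 57.1 to 65.4 in the other 5 libraries. Its value fell from 0.81 (adjusted p = 0.0938) to 0.13 (SE 0.065, adjusted p = 0.25).

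The same library held more of most very long members. Nlgn1 had 298 CPM against 118 to 139 in the other 5 libraries, Cntnap2, a juxtaparanodal organizer of potassium channels, 515 against 239 to 269, and Ptprd, a presynaptic hub of Slitrk and Il1rapl1 binding, 381 against 173 to 260. Of the 16 members with a span over 300 kb, library 6 was the highest of all 24 libraries in 10, with a median ratio of 1.31 to the other 5 and 4 above 2-fold. Of the 26 shorter members it was the highest in 1, with a median ratio of 0.992 and 0 above 2-fold. Length alone did not order the ratios, since Tenm3 at 616.3 kb had 0.995, Tenm2 at 1229 kb 1.19 and Ntng1 at 364.0 kb 0.881. Per 100 kb of span, library 6 held 28.0 CPM more of Lrrtm4, 18.6 of Nlgn1 and 17.8 of Il1rapl1 than the mean of the other 5, but 2.21 more of Tenm2.

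Coding genes over 300 kb as a whole showed it too. These include the members, 6 over 1 Mb and 10 from 300 kb to 1 Mb. Of 60 coding genes over 1 Mb, library 6 was the highest of 24 in 46 (76.7%), with a median deviation of 0.88 on the log2 scale from each gene's mean. Between 300 kb and 1 Mb it was the highest in 220 of 509 (43.2%). In the other libraries the median deviation of genes over 1 Mb lay between -0.18 and 0.06. Genes over 300 kb took 8.20% of the counts of library 6 and 5.84% to 6.65% of those of the other 23. Its mitochondrial share of 1.81% lay within the range of the other libraries, 1.37% to 2.01%.

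**Figure D3:**
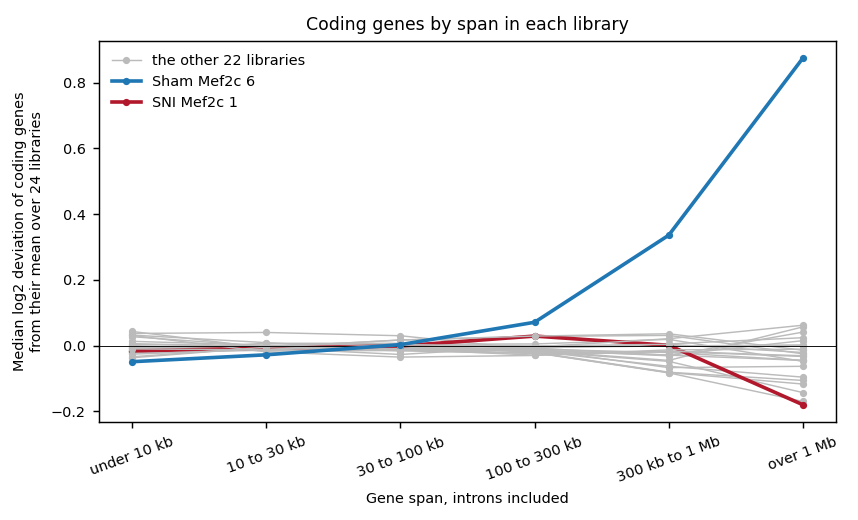
Median log2 deviation of coding genes from their mean over the 24 libraries (vertical axis) by gene span (horizontal axis), 1 line per library. Sham Mef2c library 6 reaches 0.88 for genes over 1 Mb, and the other 23 stay between -0.18 and 0.06.

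Across the 42 members, the log2 fold change of Sham Mef2c against Sham Gfp and the log10 of the span had a Pearson correlation of 0.37 and a Spearman correlation of 0.42. Without library 6 these were -0.04 and 0.03. Over 16349 coding genes they were 0.11 and 0.11, and 0.09 and 0.04 without it over 16423. Genes share their libraries here and are not independent, so these are descriptions. The 6 members over 1 Mb had a median log2 fold change of 0.30, and 0.14 without library 6, beside 0.27 and 0.09 for the 60 coding genes of that length. The longest members moved with it: Ptprd (2271 kb) went from 0.25 to 0.07 and Cntnap2 (2245 kb) from 0.44 to 0.22. The shortest did not move in 1 direction, with Cbln1 (4.205 kb) at 0.53 and 0.51 and Slitrk1 (5.359 kb) at 0.10 and 0.17.

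Removing a smooth trend on gene span from every library left 2 members past the threshold, Nlgn3 at 0.13 (SE 0.037, adjusted p = 0.0231) and Slitrk5 at 0.14 (SE 0.043, adjusted p = 0.0398), which span 26.80 and 8.045 kb. Leaving out library 6 together with SNI Mef2c library 1 left 3, which were Nlgn3, Slitrk5 and Nrxn3, the last at 0.20 (SE 0.053, adjusted p = 0.0133). Without library 6 alone, 40 of the 42 members had values above 0.

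**Figure D4:**
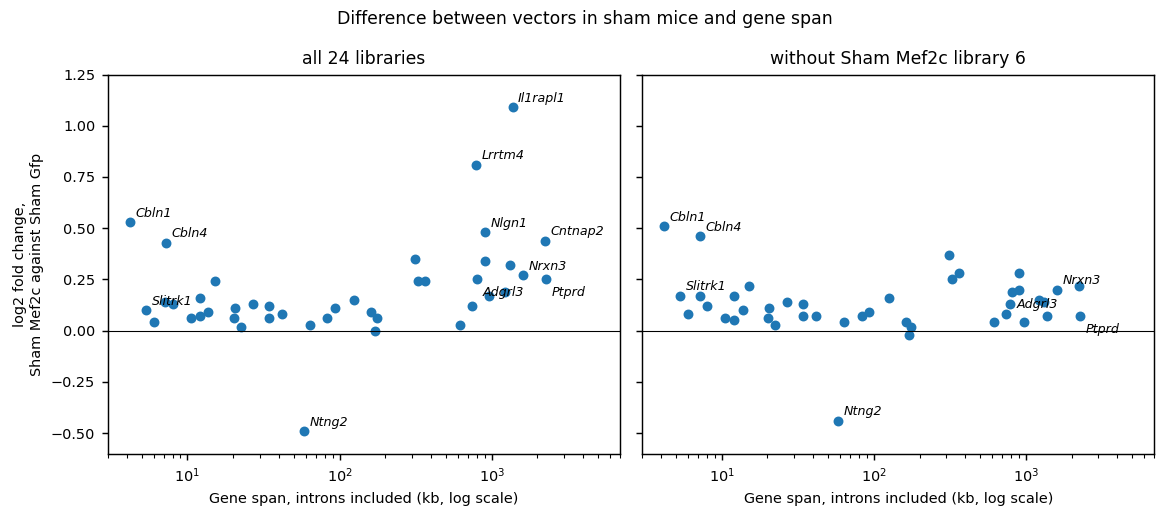
Log2 fold change of each of the 42 members in Sham Mef2c against Sham Gfp (vertical axis) against the gene span in kb on a log scale, with all 24 libraries (left) and without Sham Mef2c library 6 (right). Il1rapl1 drops from 1.09 to 0.07 and Lrrtm4 from 0.81 to 0.13, and the Pearson correlation with the log10 span goes from 0.37 to -0.04.

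The second comparison asked what nerve injury did under the Gfp vector. Of the 42 members, 0 passed in SNI Gfp against Sham Gfp in edgeR, as did 0% of all genes tested, and DESeq2 called 0. An unadjusted p under 0.05 was reached by 1 member, Lrrc4b, against 12.3% of all genes (921 higher and 2007 lower). Lrrc4b, a netrin-G ligand family member that binds LAR phosphatases, had 185 to 222 CPM in Sham Gfp, median 200, and 198 to 235 in SNI Gfp, median 219, a difference of 0.11 on the log2 scale (SE 0.046, adjusted p = 0.27). These ranges overlapped, as they did for all 42 members, against 0.303% of all genes without overlap, and 1 tool of those tried, limma-voom with quality weights, called it at 0.15 (SE 0.04, adjusted p = 0.0166). The next smallest p-values belonged to Slitrk5 at 0.08, Cntnap1 at 0.19, Flrt1 at 0.15, Flrt2 at 0.16 and Ptprf at 0.06, with adjusted p between 0.437 and 0.609. Flrt2 was at 0.08 without SNI Gfp library 2. Values were above 0 in 39 of the 42 members, with a median of 0.09, against 53.3% of all genes and a median of 0.01. Long coding genes were mostly above 0 too, 85.0% of those over 1 Mb and 72.5% of those from 300 kb to 1 Mb. All 6 members over 1 Mb and all 10 from 300 kb to 1 Mb were above 0. Under 10 kb it was 6 of 6 members and 58.5% of coding genes. With the trend on gene span removed, 36 of the 42 members were above 0, with a median of 0.07. This comparison and the vector comparison in sham mice share the 6 Sham Gfp libraries.

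In SNI mice the vectors were compared next, and here Mef2c itself was the 1 gene that passed (0.00421% of all genes) and 0 members did in edgeR. Nlgn3 had the smallest p of the members, with 88.7 to 96.5 CPM in SNI Gfp, median 92.9, and 97.5 to 108 in SNI Mef2c, median 99.9. Its groups did not overlap, here in Nlgn3 alone of the 42 members, while 0.556% of all genes did not overlap, 0.329% higher and 0.227% lower. Its log2 fold change was 0.13 (SE 0.037, adjusted p = 0.147), and DESeq2 called it, alone among the members, at 0.13 (SE 0.038, adjusted p = 0.0469), while limma-voom with quality weights called 0. Of the 42, 6 had an unadjusted p under 0.05, 5 higher and 1 lower, against 14.3% of all genes (1379 higher and 2004 lower). The 6 members were Nlgn3, Adgrl1 at 0.21 (SE 0.069), Lrrc4 at 0.14 (SE 0.046), Slitrk2 at 0.21 (SE 0.076), Slitrk3, a partner of Ptprd at inhibitory synapses, at 0.26 (SE 0.098), and Cntnap4, which is tied to interneuron synapses, at -0.53 (SE 0.25), and their adjusted p lay between 0.147 and 0.349.

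Adgrl1 ranged from 362 to 436 CPM in SNI Gfp, median 379, and from 410 to 524 in SNI Mef2c, median 452, so the groups overlapped. Cntnap4 had 17.1 to 45.6 CPM in SNI Gfp, median 30.7, and 19.6 to 22.7 in SNI Mef2c, median 20.6, so its SNI Mef2c libraries lay inside the range of SNI Gfp. Lrrc4, which binds netrin-G2, lies within the opposite-strand gene Snd1, whose reads would exceed those counted for Lrrc4 if spread evenly (144%), so its value is uncertain. Adgrl1 overlaps Gm10644, which had 52.9% as many counts, and Cntnap4 overlaps Gm45904, with 48.3% as many.

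Nerve injury under the Mef2c vector also gave 0 members past the threshold in SNI Mef2c against Sham Mef2c (edgeR, 0% of all genes). DESeq2 and limma-voom called 0 members. At an unadjusted p under 0.05 there were 14 members, 6 higher and 8 lower, against 16.1% of all genes (2018 higher and 1798 lower). Cadm1, an adhesion molecule of excitatory synapses, had 252 to 373 CPM in Sham Mef2c, median 319, and 179 to 306 in SNI Mef2c, median 233, a difference of -0.38 on the log2 scale (SE 0.13, adjusted p = 0.223). The other small p-values were those of Slitrk3 at 0.30, Adgrl1 at 0.21, Cbln1 at -0.91, Cntnap1 at 0.31 and Ntng2 at 0.93, with adjusted p between 0.223 and 0.229. Without SNI Mef2c library 1 Ntng2 was at 0.48 (SE 0.29, adjusted p = 0.419). Tenm1 was the 1 member whose groups did not overlap, with 117 to 167 CPM in Sham Mef2c and 80.1 to 116 in SNI Mef2c (log2 fold change -0.36, adjusted p = 0.309), while 1.1% of all genes did not overlap, 0.4% higher and 0.695% lower. The values of Il1rapl1 at -0.87 and Lrrtm4 at -0.61 here rest on the same Sham Mef2c library 6.

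The interaction asked whether the vector difference depended on surgery. Of the 42 members 0 passed in edgeR, as did 0% of all genes, and DESeq2 called 0. For 9 members the unadjusted p was under 0.05, 2 higher and 7 lower, against 14.9% of all genes (1840 higher and 1689 lower). The smallest p-values were those of Cbln1 at -1.13 (SE 0.43), Nrxn3 at -0.31 (SE 0.12), Cntnap4 at -0.87 (SE 0.36), Cntnap2 at -0.59 (SE 0.25), Cadm1 at -0.41 (SE 0.18) and Ntng2 at 1.11 (SE 0.49), with adjusted p between 0.313 and 0.321. Ntng2 was at 0.66 without SNI Mef2c library 1, and Cntnap2 at -0.38 without Sham Mef2c library 6. The rise of Nrxn3, Nlgn3, Slitrk5 and Adgrl3 in sham mice was therefore not shown to differ from the vector difference in SNI mice. Limma-voom with quality weights called 8 members lower, Nrxn2, Nrxn3, Adgrl3, Cntnap2, Cntnap4, Cadm4, Cbln1 and Tenm1, at adjusted p between 0.0198 and 0.0454, and called 2018 genes higher and 2102 lower in all.

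Several members were high or low in the library with the most cortical marker RNA. SNI Mef2c library 1 had the highest cortical marker mean of the 24 libraries, 5.63 log2 CPM, where the others lay between 1.99 and 5.10, and the lowest striatal mean, 7.02, where the others lay between 7.33 and 8.81. It was the highest of all 24 libraries in 15 members and the lowest in 10. Among coding genes, SNI Mef2c library 1 was the highest in 13.3% to 23.6% of each span class. It was the lowest in 763 of 5206 coding genes of 10 to 30 kb and 21 of 60 over 1 Mb. Netrin-G2 (Ntng2), a presynaptic ligand of Lrrc4, had 140 CPM there against 24.5 to 57.2 in the other SNI Mef2c libraries, Slitrk1 121 against 42.2 to 55.1, Tenm3 292 against 145 to 164 and Ntng1, the netrin-G1 gene, 74.6 against 23.9 to 42.3. Cbln4, a cerebellin, had 2.53 CPM against 15.8 to 27.0, Lrrtm3 16.9 against 48.1 to 59.4 and Flrt3 13.8 against 26.0 to 30.6. SNI Gfp library 4, with the second highest cortical mean of 5.10, had the second highest Ntng2 at 65.0 CPM and Tenm3 at 201 and the second lowest Cbln4 at 8.46. Its Slitrk1, at 66.1 CPM, was also the second highest, but its Ntng1 at 29.9, Lrrtm3 at 44.6 and Flrt3 at 24.2 CPM lay within the range of the libraries other than SNI Mef2c library 1.

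**Figure D5:**
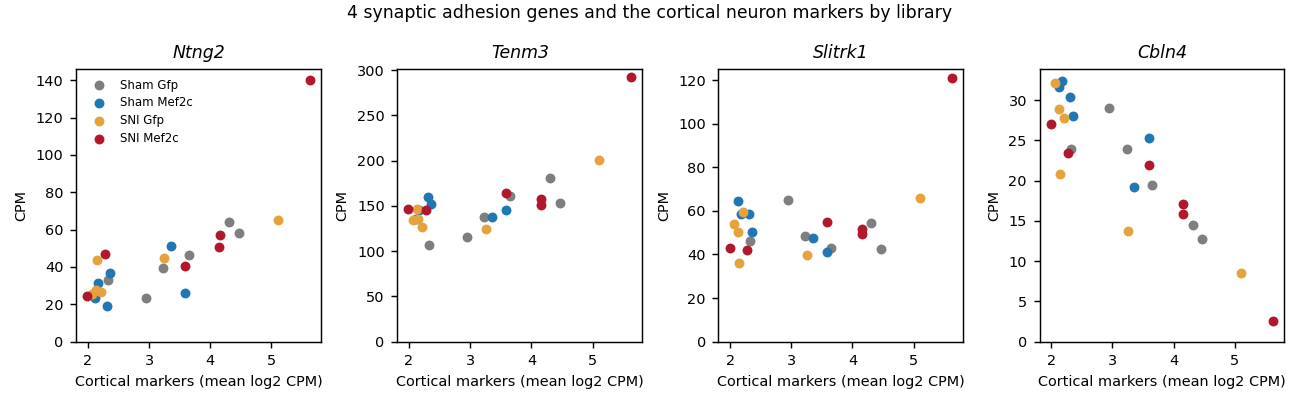
CPM of Ntng2, Tenm3, Slitrk1 and Cbln4 (vertical axes) against the mean log2 CPM of 15 cortical neuron markers (horizontal axis), 1 point per library, coloured by group. SNI Mef2c library 1 is at the far right with 140 CPM of Ntng2, 292 of Tenm3, 121 of Slitrk1 and 2.53 of Cbln4.

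Without SNI Mef2c library 1, the log2 fold change between vectors in SNI mice went from 0.63 to 0.18 (SE 0.29, adjusted p = 0.78) for Ntng2, from 0.35 to 0.07 for Ntng1, from 0.28 to 0.08 for Tenm3 and from 0.24 to -0.07 for Slitrk1, and 0 members passed either way. In the fit with cortical markers as a covariate, 1 member rose in Sham Mef2c against Sham Gfp, Adgrl1 at 0.15 (SE 0.047, adjusted p = 0.044). The cortical mean was 3.49 log2 CPM in Sham Gfp, 2.65 in Sham Mef2c, 2.82 in SNI Gfp and 3.63 in SNI Mef2c. With cortical and with septal and thalamic markers together as covariates, 2 members passed in the sham comparison and 0 in each other.

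Some members were high where striatal markers were low and cortical ones were not high. Cntnap4 had 45.6 CPM in Sham Gfp library 3, 47.6 and 41.9 in Sham Mef2c libraries 4 and 5, and 45.6 in SNI Gfp library 1, and 17 to 35.7 in the other 20 libraries. Those 4 libraries had striatal means of 7.33 to 7.65 log2 CPM and septal and thalamic means of 4.61 to 4.86, in which the 24 libraries ranged from 4.03 to 5.05. Their oligodendrocyte means were 7.11 to 7.36, where the 24 libraries ranged from 6.43 to 7.36, and their oligodendrocyte precursor means 4.65 to 4.89, where the range was 4.33 to 4.89. Sham Mef2c library 2, with the highest septal and thalamic mean, had less Cntnap4 than any of the 4. Nrxn2, which ranged from 326 to 551 CPM over all libraries, had 498, 474, 477 and 523 CPM in the same 4. Its highest value, however, was in SNI Mef2c library 1, the library with the highest cortical mean.

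Of 69 other genes of synaptic adhesion and synapse organization, 2 rose in Sham Mef2c against Sham Gfp and 0 fell, and 0 passed in each of the other comparisons. Lrfn5, a postsynaptic leucine-rich repeat protein, had 58.3 to 76.7 CPM in Sham Gfp, median 62.5, and 71.5 to 142 in Sham Mef2c, median 78.1, a difference of 0.45 on the log2 scale (SE 0.14, adjusted p = 0.0378). Cntn3, a contactin, had 22.8 to 42.8 CPM, median 31.2, and 38.7 to 66.9, median 40.9, a difference of 0.51 on the log2 scale (SE 0.15, adjusted p = 0.0398). Both groups of ranges overlapped, and both genes are long, at 335 kb and 410 kb. In library 6 they had 142 and 66.9 CPM where the other 5 Sham Mef2c libraries had at most 78.8 and 44.0, and without it Lrfn5 was at 0.26 (SE 0.09, adjusted p = 0.0829) and Cntn3 at 0.37 (SE 0.14, adjusted p = 0.111), and neither passed.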

How the data were processed

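Per the labels, RNA libraries were made from accumbens punches of 24 samples, and the submitters' processing notes name featureCounts and mm10. The authors deposited raw counts per gene and FPKM. The aligner and annotation, not given in the sources used here, could not be checked. The deposited FPKM values used the gene span as length in 42625 of 42625 genes that could be compared, so introns are counted, and the outer gene of nested pairs had at least as many counts in 1300 of 1300 pairs on opposite strands, so strand was not used, although the kit named in the labels keeps it. Of 55401 IDs, 54349 matched GENCODE M21 with their version. Total counts lay between 25477019 and 36570108.

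Counts were fitted with edgeR 4.0.16 in R 4.3.3 (filterByExpr, TMM, robust quasi-likelihood, 1 coefficient per group, 20 residual degrees of freedom) on 23738 genes, and p-values are two-sided with Benjamini-Hochberg adjustment. Means of marker lists are of log2 CPM, the prior count being 2. The fit was tested on simulated data. Alternatives were DESeq2 1.42.0, limma 3.58.1 (voom with quality weights, and log2 of FPKM plus 1 or 0.1), sva 3.50.0 with 2 surrogate variables, other scalings and count filters, marker covariates, a replicate block, a lowess trend (span 0.3) on span removed per library, and each library left out.

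The text names every member with an adjusted p under 0.05, the 6 smallest p-values of each comparison, the 2 longest and 2 shortest members, up to 6 called genes of the list of 69 other adhesion genes, and Mef2c. Members named for the spread of single libraries were chosen after their values were seen. The members and all lists were chosen with earlier results of these data known.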

Additional observations from a re-analysis of the deposited data

Results flagged for a closer look

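Within each group of 6, a library was singled out when its gap to the nearest other library exceeded 0.625 of the group's range for a member's CPM, a rule by which chance alone picks out about 1 in 20 groups. It did so 28 times in 168 tests, 15 of them in SNI Mef2c library 1 and 7 in Sham Mef2c library 6. The members of a library are not independent tests. The share of all genes singled out by this rule was not taken, so these counts are not shown to be particular to the members. SNI Mef2c library 1 was also the highest of 24 in 13.3% to 23.6% of the coding genes of each span class.

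SNI Mef2c library 1 stood above its group. It had 551 CPM of Nrxn2, 121 of Slitrk1, 67.7 of Slitrk4, 458 of Cadm3, 23 of Cbln2, 375 of Ptprd, 635 of Ptprs, 292 of Tenm3, 74.6 of Ntng1 and 140 of Ntng2. It stood below with 315 CPM of Nrxn3, 16.9 of Lrrtm3, 67.2 of Adgrl2, 127 of Cntnap2 and 13.8 of Flrt3. This is the library with the highest cortical and the lowest striatal marker mean.

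Sham Mef2c library 6 stood above its group with 605 CPM of Nrxn3, 298 of Nlgn1, 283 of Lrrtm4, 219 of Adgrl3, 515 of Cntnap2, 263 of Lrrc4c and 284 of Il1rapl1, all of them genes over 300 kb. SNI Gfp library 4, with the second highest cortical mean, had 42.6 CPM of Lrrtm2, 43.2 of Lrrc4 and 201 of Tenm3, each above its group. SNI Gfp library 2 had 85.1 CPM of Slitrk3 and 89.9 of Flrt2, above its group, and Sham Mef2c library 4 had 15.1 CPM of Cbln2. The causes were not tested.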

How the results depend on the processing

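In Sham Mef2c against Sham Gfp, 4 members passed. The number moved to 0 with scaling by library size alone and with log2 of FPKM plus 1 or 0.1. It was 1 without a count filter and with a cortical covariate, and 2 with the 2 groups fitted alone or a span trend removed. With 2 surrogate variables it was 5, with DESeq2 6 and with limma-voom 8. Of the alternatives chosen after seeing the data, a septal and thalamic covariate gave 0, both covariates 2, Sham Mef2c libraries 2 and 5 left out 5, and Sham Mef2c library 6 with SNI Mef2c library 1 left out 3. Leaving out 1 library gave 0 to 6 members here and 0 to 0 in each other comparison. Limma-voom gave 1 member in SNI Gfp against Sham Gfp and 8 in the interaction, and DESeq2 gave 1 in SNI Mef2c against SNI Gfp. The interaction of Ntng2, 1.11, became -0.05 with 2 surrogate variables, and the cause was not tested. Of 1254 values of single named members under an alternative, 1176 kept their direction and side of the threshold, 63 fell short of it, 14 passed it and 1 reversed. Most named values had not passed and so could not fall short. All 63 belonged to the 4 members called in the sham comparison. Over 24 left-out libraries and 18 other settings, Adgrl3 fell short in 4 and 10 and Nlgn3 in 5 and 10. Nrxn3 did so in 7 and 9, and Slitrk5 in 10 and 8. Replicate numbers did not pair the libraries (9 of 36 same-numbered pairs with r over 0.1, mean -0.0429), and with a replicate block 3 members passed in the sham comparison and 0 in each other. Over all genes the sham comparison had 351 higher and 1882 lower genes. The higher ones became 117 to 135 with library size alone, FPKM or no count filter, 190 with the block, 569 with DESeq2, 639 with an oligodendrocyte covariate, 1102 with surrogate variables and 1866 with limma-voom (2571 lower), 177 without Sham Mef2c libraries 2 and 5 and 605 without Sham Mef2c library 6 and SNI Mef2c library 1. With 1 library left out they were 132 (Sham Gfp 5) to 1323 (Sham Gfp 3), with 213 for Sham Gfp 6, 224 for Sham Mef2c 5 and 610 for SNI Mef2c 1. In SNI Gfp against Sham Gfp, where edgeR called 0 genes, limma-voom called 965 higher and 1829 lower, DESeq2 63 and 490, FPKM plus 1 22 and 709, and edgeR 146 and 1246 without SNI Gfp library 6 and 151 and 729 without Sham Gfp library 3. In SNI Mef2c against SNI Gfp, DESeq2 called 37 and 401, and edgeR 25 and 354 without SNI Gfp library 2, 1 and 152 without library 1 and 1 and 161 without library 5. The interaction had 260 and 9 without SNI Gfp library 6. Counts limit Cbln1, at under 5 CPM.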
